A study of Mus musculus with 16 samples.

Results

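The mitosis genes are a list of 45 mouse genes whose products carry a cell into mitosis and divide it. A gene entered the analysis when the array's annotation table gave an entry its symbol alone, and 43 of the 45 did, among 22180 genes with such an entry. The cyclin gene Ccnb1 and the condensin gene Ncapg had no entry of their own and were not analysed here. The rule used no measured value.

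The study used 16 samples, each hybridised to its own Affymetrix Mouse Gene 2.1 ST array. The cells came from a single mouse embryonic stem cell line, iGPA-Myo7a:mVenus, in which doxycycline (Dox) induces Gfi1, Pou4f3 and Atoh1, a trio of hair cell transcription factors, together, and the fluorescent protein mVenus reports Myo7a, a myosin of hair cells. The line was grown as floating embryoid bodies (EBs), and 4 of the 6 groups are induced hair cell-like cells (iHCs), meaning mVenus-positive cells taken by flow sorting after EBs had been dissociated. These are Dox+RA iHCs of day 12, Dox+RA iHCs of day 8, Dox iHCs of day 12 and Dox iHCs of day 8, with 3 replicates each, where RA is retinoic acid and treatment began on day 4, so that it had lasted 8 days at day 12 and 4 days at day 8. The controls were untreated, unsorted EBs of day 12 and of day 8 of the same line, with 2 replicates each. The submitters name the replicates biological, from separate RNA preparations, and p-values measure the spread between these preparations. Each difference between iHCs and EBs holds the treatment and the sort together, and these cannot be told apart.

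Mitosis is started by Cdk1, a kinase that works only with a cyclin partner and whose inhibitory phosphates are put on by Wee1 and taken off by the Cdc25 phosphatases. Condensins then compact the chromosomes, kinetochores tie them to the spindle, the spindle checkpoint delays anaphase until each is attached, and a contractile ring cuts the cell apart. Most of these genes are transcribed late in the cell cycle and are shut down in cells that leave it. Hair cells of the mammalian inner ear are postmitotic, and they form from progenitors that have stopped dividing.

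Many promoters of such genes carry the cell cycle genes homology region (CHR), a short element bound by the MuvB complexes that repress these genes in resting cells and activate them before mitosis, next to CCAAT boxes bound by the factor NF-Y. The RefSeq promoter sequences of build GRCm38.p6, from 250 bases before to 50 bases after the annotated start, were available for 34 of the mitosis genes and searched for TTTGAA, the CHR core, and CCAAT on both strands. The 4 genes below carry both motifs and had the largest mean falls against EBs among those that do, and Bub3 and Cdc25b, printed last, were added after their values were seen because they are the genes that did not fall. Sequences run 5' to 3', and capitals mark TTTGAA and CCAAT or their reverse complements TTCAAA and ATTGG.
Cdk1: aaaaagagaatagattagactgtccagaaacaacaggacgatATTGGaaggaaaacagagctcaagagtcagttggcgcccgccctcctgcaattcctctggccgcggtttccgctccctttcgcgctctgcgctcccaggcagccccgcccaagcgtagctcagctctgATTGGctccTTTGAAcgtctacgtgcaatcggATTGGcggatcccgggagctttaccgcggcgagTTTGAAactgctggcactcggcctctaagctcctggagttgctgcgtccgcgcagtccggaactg
Mki67: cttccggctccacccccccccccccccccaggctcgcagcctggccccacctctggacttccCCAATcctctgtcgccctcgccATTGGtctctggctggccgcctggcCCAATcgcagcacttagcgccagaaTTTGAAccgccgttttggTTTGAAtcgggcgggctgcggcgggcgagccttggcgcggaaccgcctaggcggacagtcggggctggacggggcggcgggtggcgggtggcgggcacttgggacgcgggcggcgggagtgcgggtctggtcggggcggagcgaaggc
Ect2: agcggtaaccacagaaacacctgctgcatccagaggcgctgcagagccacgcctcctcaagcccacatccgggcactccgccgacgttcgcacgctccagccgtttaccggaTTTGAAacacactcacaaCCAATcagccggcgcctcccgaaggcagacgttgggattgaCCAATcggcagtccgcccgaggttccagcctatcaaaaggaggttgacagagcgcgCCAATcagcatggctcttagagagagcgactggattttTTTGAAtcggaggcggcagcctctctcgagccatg
Kif23: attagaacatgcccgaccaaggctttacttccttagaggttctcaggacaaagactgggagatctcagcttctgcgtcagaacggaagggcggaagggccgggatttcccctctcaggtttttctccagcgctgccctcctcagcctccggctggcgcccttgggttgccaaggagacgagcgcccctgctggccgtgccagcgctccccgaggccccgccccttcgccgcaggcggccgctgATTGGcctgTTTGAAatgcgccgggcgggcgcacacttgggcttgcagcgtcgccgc
Bub3: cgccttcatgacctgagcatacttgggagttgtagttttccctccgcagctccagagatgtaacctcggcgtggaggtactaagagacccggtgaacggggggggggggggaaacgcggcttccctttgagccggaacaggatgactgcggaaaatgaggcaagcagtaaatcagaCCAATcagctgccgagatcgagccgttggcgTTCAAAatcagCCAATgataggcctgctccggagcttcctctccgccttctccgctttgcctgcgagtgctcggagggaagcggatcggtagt
Cdc25b: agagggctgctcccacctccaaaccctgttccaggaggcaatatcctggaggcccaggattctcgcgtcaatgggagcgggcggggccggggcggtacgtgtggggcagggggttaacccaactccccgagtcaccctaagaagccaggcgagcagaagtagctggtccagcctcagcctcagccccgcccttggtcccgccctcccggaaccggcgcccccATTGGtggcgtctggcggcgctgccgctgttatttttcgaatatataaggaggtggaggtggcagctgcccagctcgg

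The Cdk1 sequence is chr10:69352863-69353162 on the minus strand, and that of Mki67 is chr7:135716330-135716629 on the minus strand. The Ect2 sequence is chr3:27153805-27154104 on the minus strand, which is 1 of 2 sequences listed for the gene, and that of Kif23 is chr9:61946750-61947049 on the minus strand. For Bub3 the sequence shown is chr7:131560120-131560419 on the plus strand, again 1 of 2, and for Cdc25b it is chr2:131186698-131186997 on the plus strand. Bub3 holds both motifs, like the 4 genes printed before it. Cdc25b holds CCAAT and no TTTGAA in this window.

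Of the 34 mitosis genes, 26 had TTTGAA in the window, or 76.5% (95% Wilson interval 60.0% to 87.6%), against 3019 of 16990 genes with a promoter sequence, or 17.8%. CCAAT was present in 76.5% of the mitosis genes and in 41.6% of all genes. Both motifs together were present in 23 of 34, or 67.6%, against 7.13% of all genes. In the shorter stretch from 100 bases before to 50 after the start, the share with both was 55.9% of mitosis genes and 2.03% of all genes. Of the E2F-type motifs, TTCGCGC was present in 2 of 34 mitosis genes, or 5.88% (interval 1.63% to 19.1%), against 2.31% of all genes, and GGCGGGA in 26.5% (interval 14.6% to 43.1%) against 16.8%. In the shorter stretch TTCGCGC was present in 0 of 34 mitosis genes (interval 0.0% to 10.2%) against 1.37% of all genes, and GGCGGGA in 14.7% against 11.3%. The mitosis genes without TTTGAA were Birc5, Bub1, Cdc25b, Cenpe, Mad2l1, Nuf2, Nusap1 and Pttg1, of which all but Cdc25b and Pttg1 fell in each comparison with EBs below. A match is a description of the letters, and binding was not measured.

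**Figure D1:**
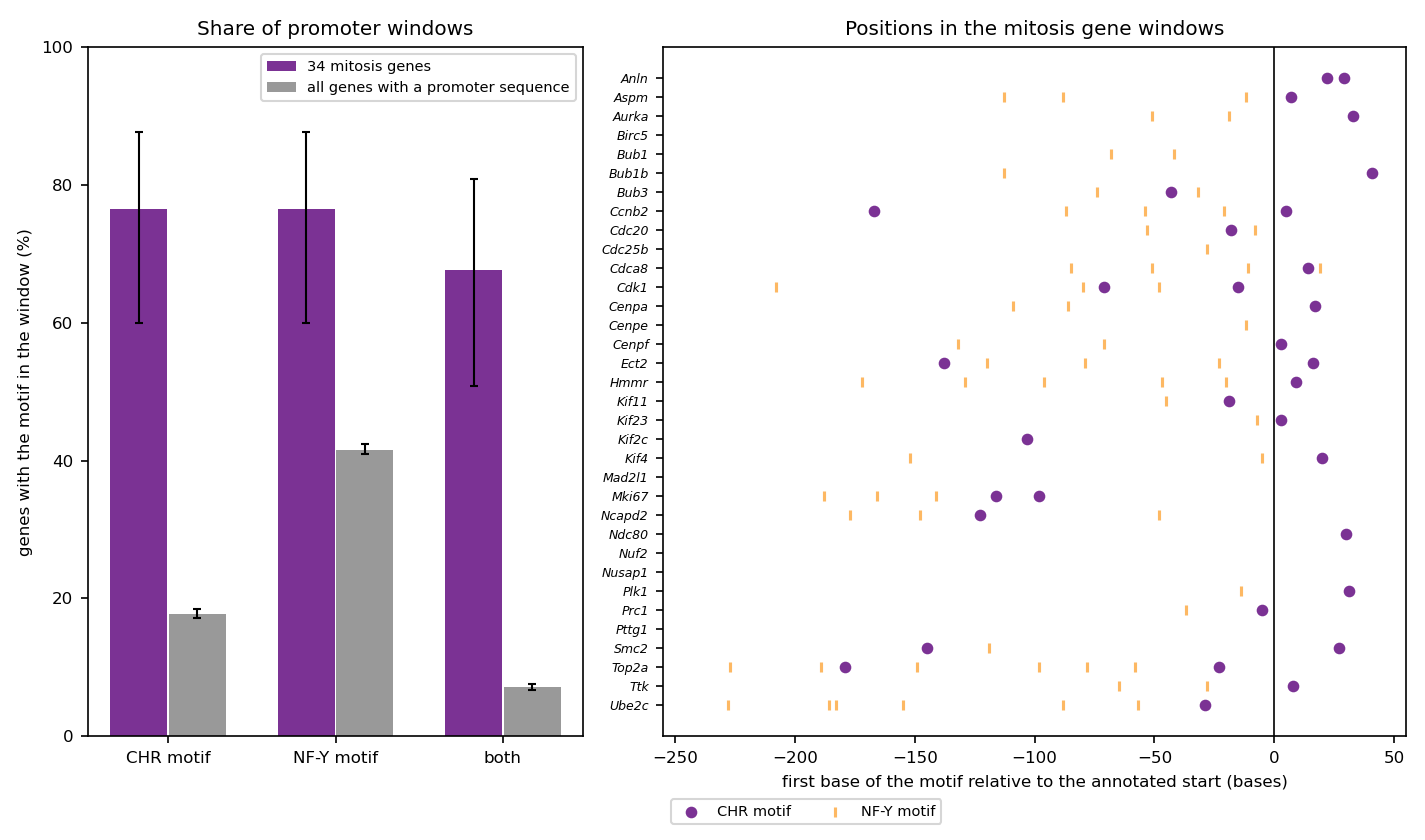
Promoter motifs of mitosis genes. The left panel gives the percent of genes with TTTGAA (CHR motif), CCAAT (NF-Y motif) or both in the 300 bases around the start, for 34 mitosis genes (purple) and 16990 genes (grey), with 95% Wilson intervals as bars; the right panel gives the position of each match in bases from the annotated start, with the sequence of lower start coordinate for the 3 genes that have more than 1.

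All values are log2 RMA signals as deposited, in which a difference of 1 is a 2-fold change of signal. Averaged over the 43 genes, the signal was 5.18 ± 0.05 (SD, n = 3) in Dox+RA iHCs of day 12, 5.66 ± 0.17 (n = 3) in Dox+RA iHCs of day 8, 5.57 ± 0.21 (n = 3) in Dox iHCs of day 12 and 6.47 ± 0.39 (n = 3) in Dox iHCs of day 8, against 7.88 ± 0.01 (n = 2) in EBs of day 12 and 8.10 ± 0.24 (n = 2) in EBs of day 8. For 41 genes both EB means lay above all 4 iHC means. Dox iHCs of day 8 had the highest of the iHC means in 41 genes and Dox+RA iHCs of day 12 the lowest in 41. In bulk RNA, fewer dividing cells and less of these transcripts in each cell cannot be told apart.

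**Figure D2:**
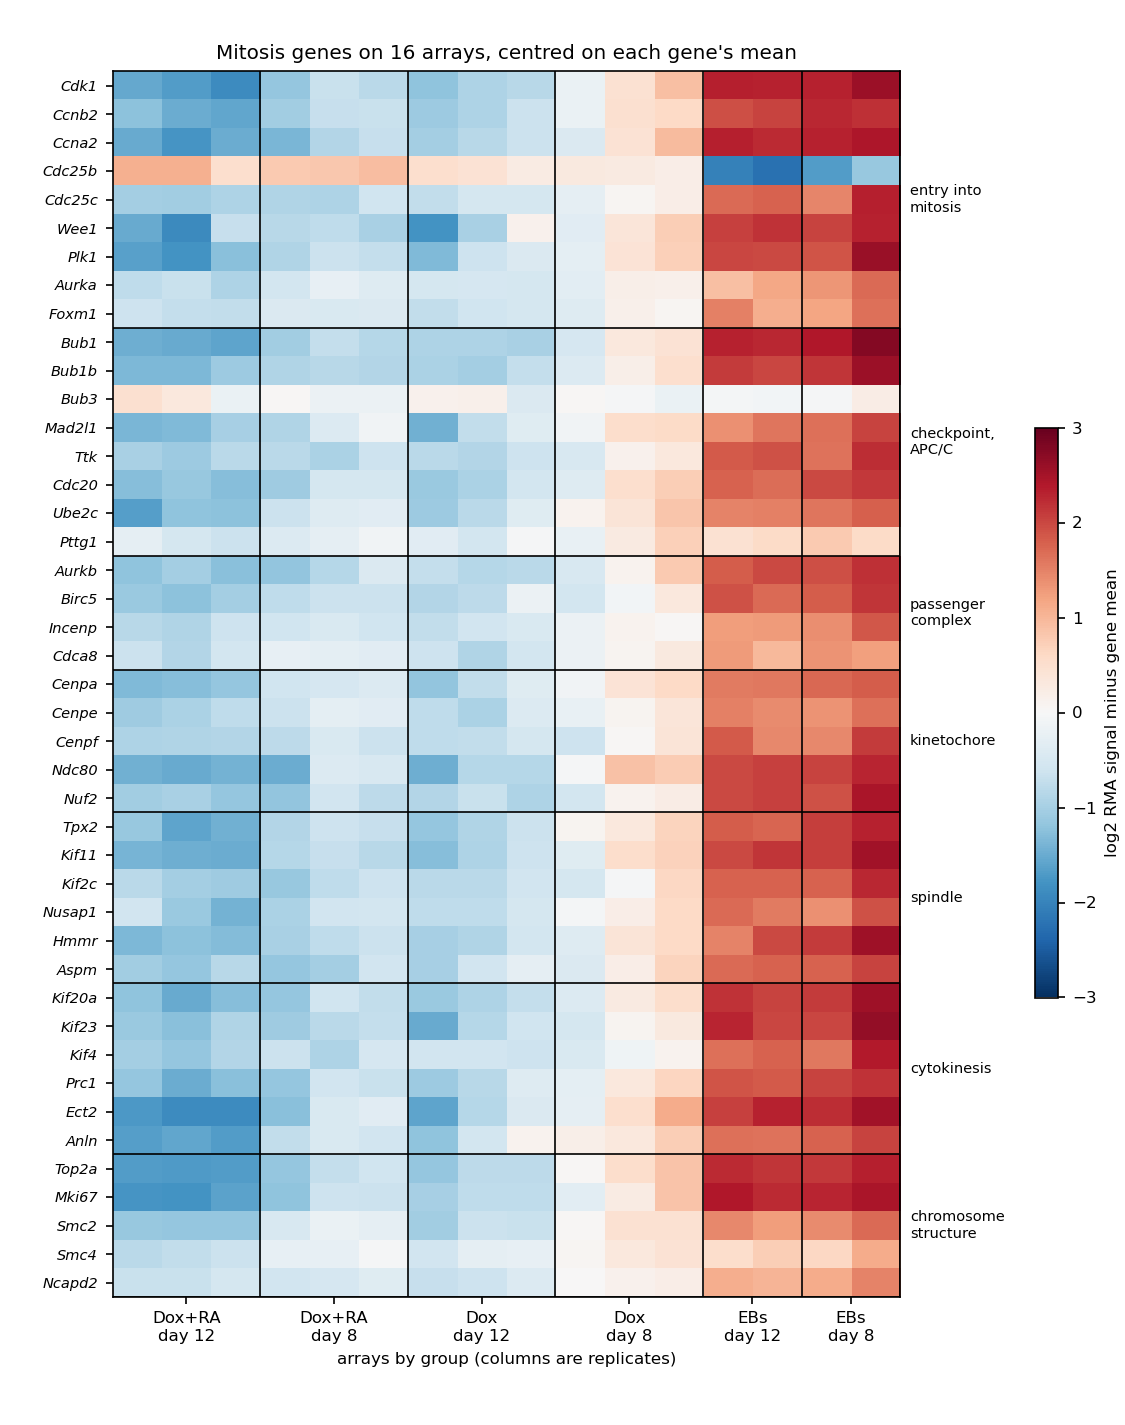
Log2 RMA signal of the 43 mitosis genes on the 16 arrays, each gene centred on its mean over all arrays, with genes in rows by role and arrays in columns by group. The EB columns on the right are red for 41 genes, the 2 exceptions being Cdc25b, which is blue there, and Bub3, which is pale throughout.

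Against EBs of the same day, almost the whole list was lower in iHCs. A gene was called when limma's adjusted p over all 22180 genes was under 0.05. In Dox+RA iHCs of day 12, 41 genes fell, Cdc25b rose and Bub3 was not called, with a median log2 difference of -2.92, which leaves 13.2% of the EB signal. For comparison, 22.4% of all genes were called lower there and 22.4% higher, and the median of all genes was 0.07. In Dox+RA iHCs of day 8, 41 fell, Cdc25b rose and Bub3 was not called, with a median of -2.76 or 14.8% of the EB signal (all genes: 22.0% lower, 19.6% higher, median 0.05). In Dox iHCs of day 12 the counts were again 41, 1 and 1, with a median of -2.50 or 17.7% (all genes: 21.7% lower, 19.2% higher, median 0.02). In Dox iHCs of day 8, 40 fell, Cdc25b rose and Bub3 and Pttg1 were not called, with a median of -1.84 or 27.9% (all genes: 18.9% lower, 15.7% higher, median 0.02).

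The falls were large and the arrays stood apart. They reached 2-fold or more in 40, 40, 40 and 39 genes in Dox+RA iHCs of day 12, Dox+RA iHCs of day 8, Dox iHCs of day 12 and Dox iHCs of day 8, where 9.81%, 9.04%, 8.75% and 6.58% of all genes did so. In 41, 41, 41 and 40 mitosis genes every iHC array lay below both EB arrays of that day, as it did for 28.5%, 28.1%, 28.7% and 27.2% of all genes. The 2 comparisons of each day share their EB arrays.

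**Figure D3:**
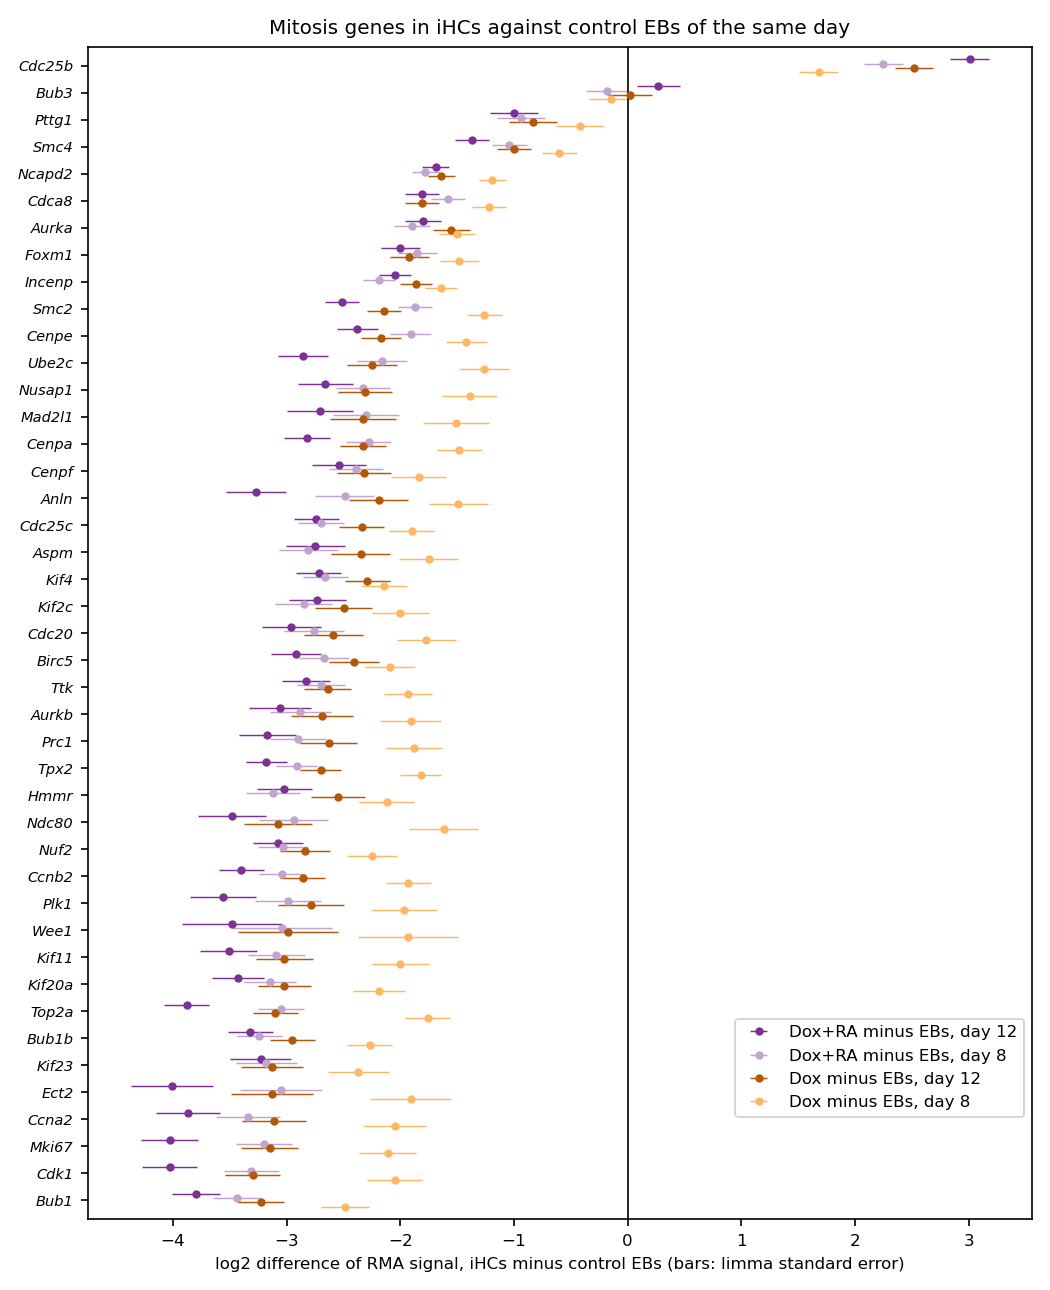
Log2 difference between iHCs and EBs of the same day for each mitosis gene (points, 4 per gene) with limma's standard error (bars). All genes but Cdc25b and Bub3 lie left of 0 in all 4 comparisons, and the Dox day 8 points (light orange) are nearest to 0 for most genes.

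Of the 9 measured genes that govern entry into mitosis, 8 fell in each of the 4 comparisons, with medians over the 9 of -3.40, -2.99, -2.79 and -1.93 in Dox+RA iHCs of day 12, Dox+RA iHCs of day 8, Dox iHCs of day 12 and Dox iHCs of day 8. Cdk1, the kinase that starts mitosis, had the largest mean fall of them. At day 12 Cdk1 stood at 5.08, 4.94 and 4.73 in Dox+RA iHCs and at 5.42, 5.71 and 5.80 in Dox iHCs, against 8.96 and 8.93 in EBs. At day 8 Cdk1 stood at 5.47, 5.96 and 5.82 in Dox+RA iHCs and at 6.42, 7.09 and 7.53 in Dox iHCs, against 8.94 and 9.19 in EBs. No iHC array came within 1 log2 unit of an EB array, and the Dox arrays of day 8 were the highest and most scattered of the iHCs. The difference was -4.03 ± 0.24 (SE, adjusted p = 4.3e-09) in Dox+RA iHCs of day 12, where 6.13% of the EB signal was left. In Dox+RA iHCs of day 8 it was -3.31 ± 0.24 (adjusted p = 3.9e-08), in Dox iHCs of day 12 it was -3.30 ± 0.24 (adjusted p = 3.7e-08), and in Dox iHCs of day 8 it was -2.05 ± 0.24 (adjusted p = 8.1e-06).

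The measured cyclin genes of the list, Ccna2 and Ccnb2, fell with Cdk1, while Ccnb1 was not measured. Outside the list, the A-type cyclin gene Ccna1 averaged 4.82 in Dox+RA iHCs and 4.80 in EBs of day 12. At day 8 its means were 5.40 ± 0.61 (SD) in Dox+RA iHCs and 4.63 ± 0.24 in EBs. In Dox iHCs they were 5.00 ± 0.14 at day 12 and 5.06 ± 0.04 at day 8. Ccna2, the A-type cyclin of S phase and G2, fell to 6.84% of the EB signal in Dox+RA iHCs of day 12 and to 24.2% in Dox iHCs of day 8, and Ccnb2, a B-type cyclin, to 9.44% and 26.2%. Plk1, the polo-like kinase that helps to activate Cdk1 and to build the spindle, was left with 8.47% and 25.6%. Wee1, the kinase that holds Cdk1 back, also fell by 3.48 ± 0.44 on the log2 scale in Dox+RA iHCs of day 12, with the largest standard error of the list. That error draws on the spread in all 6 groups. At day 12 the arrays read 4.76, 4.37 and 5.58 in Dox+RA iHCs, and spread most in Dox iHCs, at 4.48, 5.29 and 6.40. The phosphatase gene Cdc25c was left with 15.0% and 26.8%, and Foxm1, the transcription factor that activates many of these genes, with 25.0% and 36.0%.

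The smallest mean fall in this role was that of Aurka, a kinase of centrosomes and spindle poles. At day 12 Aurka stood at 5.87, 5.97 and 5.70 in Dox+RA iHCs and at 6.10, 6.12 and 6.09 in Dox iHCs, against 7.52 and 7.78 in EBs. At day 8 Aurka stood at 6.08, 6.37 and 6.25 in Dox+RA iHCs and at 6.31, 6.81 and 6.78 in Dox iHCs, against 7.96 and 8.32 in EBs. The groups did not overlap with the EBs, and the difference lay between -1.50 ± 0.16 (Dox iHCs of day 8, adjusted p = 2.2e-06) and -1.90 ± 0.16 (Dox+RA iHCs of day 8, adjusted p = 1.2e-07).

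Cdc25b, a phosphatase that activates Cdk1 at the centrosomes in G2, went the opposite way to its relative Cdc25c. At day 12 Cdc25b stood at 9.33, 9.32 and 8.75 in Dox+RA iHCs and at 8.75, 8.68 and 8.50 in Dox iHCs, against 6.23 and 6.02 in EBs. At day 8 Cdc25b stood at 9.04, 9.06 and 9.18 in Dox+RA iHCs and at 8.55, 8.53 and 8.46 in Dox iHCs, against 6.57 and 7.11 in EBs. All 12 iHC arrays were above all 4 EB arrays. The rise was 3.01 ± 0.17 (adjusted p = 3.0e-09) or 8.06-fold in Dox+RA iHCs of day 12 and 2.25 ± 0.17 (adjusted p = 7.1e-08) in Dox+RA iHCs of day 8. In Dox iHCs it was 2.52 ± 0.17 (adjusted p = 2.1e-08) at day 12 and 1.68 ± 0.17 (adjusted p = 2.3e-06) at day 8.

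**Figure D4:**
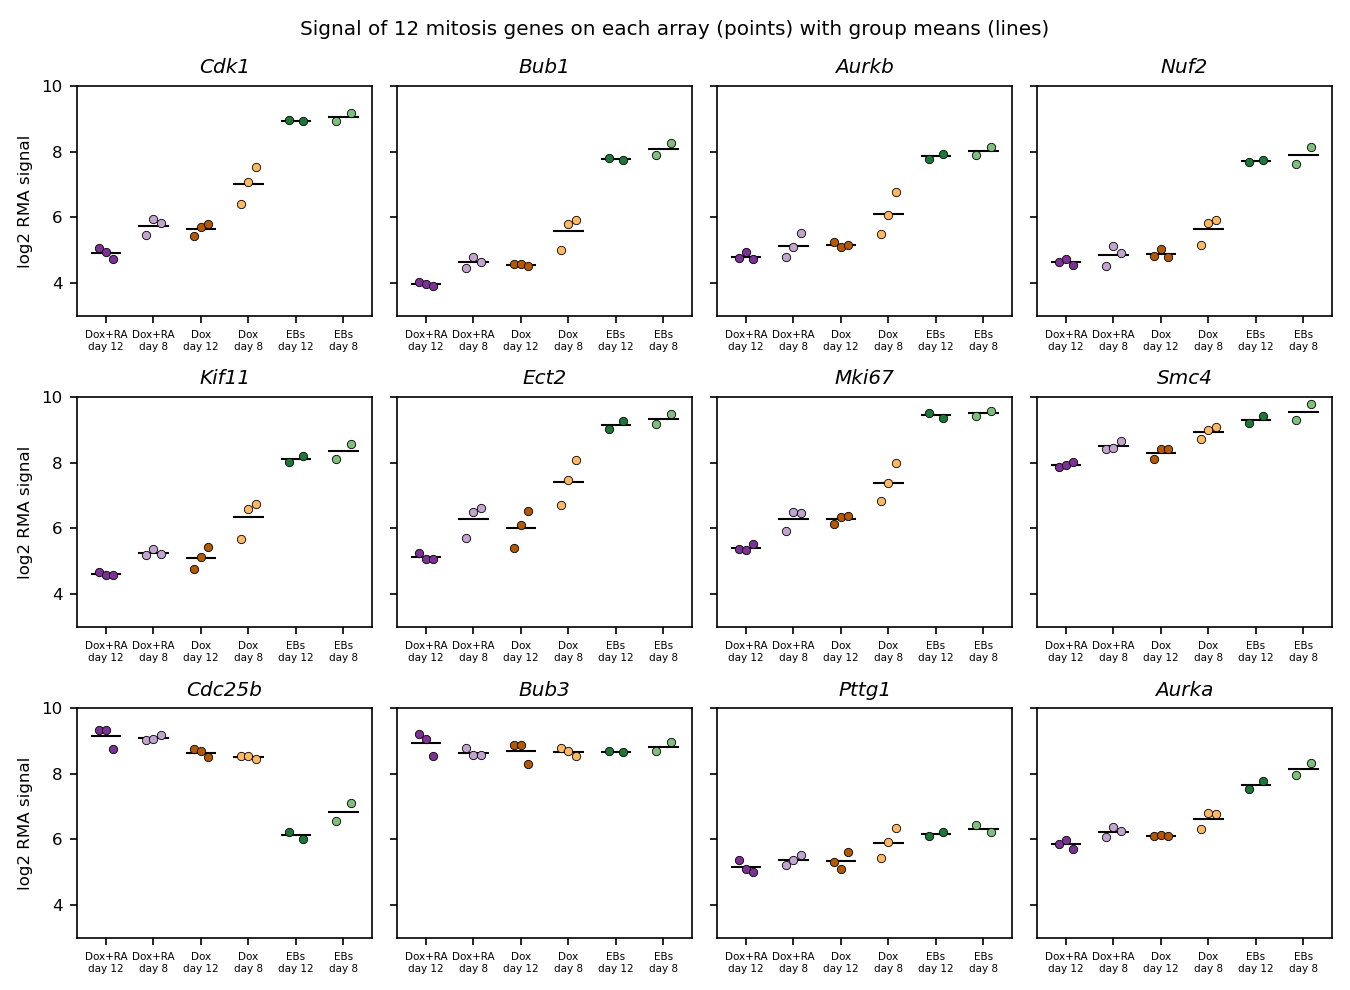
Log2 RMA signal (y axis) of 12 mitosis genes on each array (points) with group means (lines), by group on the x axis. For Cdk1, Bub1, Aurkb, Nuf2, Kif11, Ect2 and Mki67 the Dox day 8 mean lies between those of the other iHC groups below it and of the EBs above it, Cdc25b is higher in iHCs, and Bub3 stays between 8.30 and 9.21.

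Of 8 genes of the spindle checkpoint and the anaphase-promoting complex (APC/C), the ubiquitin ligase that starts anaphase, 7 fell in 3 comparisons and 6 in Dox iHCs of day 8. The medians were -2.84, -2.50, -2.46 and -1.64 in the order Dox+RA day 12, Dox+RA day 8, Dox day 12 and Dox day 8. Bub1, a checkpoint kinase at the kinetochore, had the largest mean fall of all 43 genes. At day 12 Bub1 stood at 4.04, 3.98 and 3.91 in Dox+RA iHCs and at 4.57, 4.57 and 4.52 in Dox iHCs, against 7.81 and 7.75 in EBs. At day 8 Bub1 stood at 4.46, 4.78 and 4.64 in Dox+RA iHCs and at 5.00, 5.81 and 5.93 in Dox iHCs, against 7.89 and 8.26 in EBs. The arrays of each iHC group lay far below the EBs, and in Dox iHCs of day 8 replicate 1 was the lowest. The differences were -3.80 ± 0.21 (adjusted p = 1.6e-09), -3.44 ± 0.21 (adjusted p = 5.9e-09), -3.23 ± 0.21 (adjusted p = 1.0e-08) and -2.49 ± 0.21 (adjusted p = 2.4e-07) in the same order of groups.

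Bub1b, the checkpoint protein BubR1 that holds the APC/C back, was left with 10.0% of the EB signal in Dox+RA iHCs of day 12 and 20.7% in Dox iHCs of day 8. Ttk, the kinase that recruits the other checkpoint proteins, was left with 14.1% and 26.3%, and Mad2l1, the checkpoint protein that binds Cdc20, with 15.3% and 35.2%. Cdc20, the activator of the APC/C that the checkpoint inhibits, was left with 12.9% and 29.4%. For Ube2c, the ubiquitin-conjugating enzyme of the APC/C, 13.8% and 41.9% were left.

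Bub3, the adaptor that brings Bub1 and BubR1 to the kinetochore, was not called in any of the 4 comparisons. At day 12 Bub3 stood at 9.21, 9.05 and 8.54 in Dox+RA iHCs and at 8.87, 8.88 and 8.30 in Dox iHCs, against 8.68 and 8.66 in EBs. At day 8 Bub3 stood at 8.78, 8.56 and 8.57 in Dox+RA iHCs and at 8.77, 8.69 and 8.54 in Dox iHCs, against 8.70 and 8.95 in EBs. The groups overlapped at both days. The differences were 0.27 ± 0.19 (adjusted p = 0.28), -0.18 ± 0.19 (adjusted p = 0.49), 0.02 ± 0.19 (adjusted p = 0.96) and -0.15 ± 0.19 (adjusted p = 0.61) in Dox+RA iHCs of day 12, Dox+RA iHCs of day 8, Dox iHCs of day 12 and Dox iHCs of day 8. The first of these was called with the replicate number as a block (0.39, adjusted p = 0.030) and without Dox+RA day 12 replicate 3 (adjusted p = 0.044).

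Pttg1, or securin, the inhibitor of separase that the APC/C destroys, changed least of the genes that fell. At day 12 Pttg1 stood at 5.37, 5.11 and 5.01 in Dox+RA iHCs and at 5.30, 5.10 and 5.61 in Dox iHCs, against 6.11 and 6.22 in EBs. At day 8 Pttg1 stood at 5.23, 5.38 and 5.53 in Dox+RA iHCs and at 5.43, 5.91 and 6.35 in Dox iHCs, against 6.43 and 6.21 in EBs. Replicate 3 of the Dox iHCs of day 8 lay between the EB arrays, and the other iHC arrays lay below them. It fell by 1.0 ± 0.21 (adjusted p = 0.0012), 0.94 ± 0.21 (adjusted p = 0.0021) and 0.83 ± 0.21 (adjusted p = 0.0052) on the log2 scale in Dox+RA iHCs of day 12, Dox+RA iHCs of day 8 and Dox iHCs of day 12. In Dox iHCs of day 8 the difference was -0.42 ± 0.21 (adjusted p = 0.15), and without replicate 3 of that group it was called (adjusted p = 0.014).

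All 4 genes of the chromosomal passenger complex, which corrects faulty attachments and later guides cytokinesis, fell in each comparison. Its kinase gene is Aurkb. At day 12 Aurkb stood at 4.76, 4.94 and 4.72 in Dox+RA iHCs and at 5.25, 5.10 and 5.15 in Dox iHCs, against 7.78 and 7.94 in EBs. At day 8 Aurkb stood at 4.79, 5.10 and 5.53 in Dox+RA iHCs and at 5.49, 6.08 and 6.76 in Dox iHCs, against 7.90 and 8.15 in EBs. Dox iHCs of day 8 spread over more than 1 log2 unit and still lay below every EB array. The differences were -3.06 ± 0.27 (adjusted p = 2.2e-07), -2.88 ± 0.27 (adjusted p = 4.9e-07), -2.69 ± 0.27 (adjusted p = 1.0e-06) and -1.91 ± 0.27 (adjusted p = 4.5e-05) in Dox+RA iHCs of day 12, Dox+RA iHCs of day 8, Dox iHCs of day 12 and Dox iHCs of day 8. Birc5, or survivin, which docks the complex on chromatin, was left with 13.2% of the EB signal in Dox+RA iHCs of day 12 and 23.5% in Dox iHCs of day 8. The scaffold gene Incenp was left with 24.1% and 32.2%.

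Cdca8, or borealin, had the smallest fall of the complex. At day 12 Cdca8 stood at 5.05, 4.83 and 5.16 in Dox+RA iHCs and at 5.09, 4.81 and 5.15 in Dox iHCs, against 6.97 and 6.68 in EBs. At day 8 Cdca8 stood at 5.45, 5.41 and 5.36 in Dox+RA iHCs and at 5.53, 5.79 and 5.99 in Dox iHCs, against 7.04 and 6.94 in EBs. The iHC arrays lay below the EBs at both days, and at day 12 the Dox+RA and Dox arrays covered the same range. The difference was -1.81 ± 0.15 in Dox+RA iHCs of day 12 (adjusted p = 8.4e-08) and -1.22 ± 0.15 in Dox iHCs of day 8 (adjusted p = 9.0e-06).

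The 5 centromere and kinetochore genes fell in each comparison, with medians of -2.82, -2.39, -2.33 and -1.62. Ndc80 and Nuf2 encode the partners of the complex that grips microtubule ends. At day 12 Nuf2 stood at 4.65, 4.72 and 4.55 in Dox+RA iHCs and at 4.83, 5.04 and 4.78 in Dox iHCs, against 7.69 and 7.75 in EBs. At day 8 Nuf2 stood at 4.53, 5.12 and 4.92 in Dox+RA iHCs and at 5.15, 5.82 and 5.93 in Dox iHCs, against 7.62 and 8.15 in EBs. The Dox iHCs of day 8 were the highest of the iHC groups and did not reach the EBs. The differences were -3.08 ± 0.22 (adjusted p = 2.2e-08), -3.03 ± 0.22 (adjusted p = 3.3e-08), -2.84 ± 0.22 (adjusted p = 6.2e-08) and -2.25 ± 0.22 (adjusted p = 1.1e-06) in Dox+RA iHCs of day 12, Dox+RA iHCs of day 8, Dox iHCs of day 12 and Dox iHCs of day 8. Ndc80 was left with 8.94% of the EB signal in Dox+RA iHCs of day 12 and 32.6% in Dox iHCs of day 8. Cenpa, the histone variant that marks the centromere, was left with 14.2% and 35.8%, and Cenpf, a large kinetochore protein, with 17.2% and 27.9%.

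Cenpe, a kinesin that moves chromosomes to the spindle equator, fell least of these genes. At day 12 Cenpe stood at 5.36, 5.48 and 5.66 in Dox+RA iHCs and at 5.66, 5.46 and 6.01 in Dox iHCs, against 7.94 and 7.83 in EBs. At day 8 Cenpe stood at 5.78, 6.13 and 6.09 in Dox+RA iHCs and at 6.20, 6.50 and 6.78 in Dox iHCs, against 7.76 and 8.06 in EBs. No array of an iHC group overlapped with the EBs, and the difference was -2.38 ± 0.18 (adjusted p = 5.2e-08) in Dox+RA iHCs of day 12 and -1.42 ± 0.18 (adjusted p = 2.0e-05) in Dox iHCs of day 8.

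All 6 spindle genes fell in each comparison, with medians of -2.89, -2.88, -2.52 and -1.91. Kif11 encodes the kinesin Eg5, which pushes the spindle poles apart. At day 12 Kif11 stood at 4.67, 4.59 and 4.57 in Dox+RA iHCs and at 4.77, 5.12 and 5.43 in Dox iHCs, against 8.03 and 8.21 in EBs. At day 8 Kif11 stood at 5.20, 5.37 and 5.22 in Dox+RA iHCs and at 5.69, 6.59 and 6.74 in Dox iHCs, against 8.12 and 8.57 in EBs. The iHC arrays of both days stayed more than 1 log2 unit below the EBs. The differences were -3.51 ± 0.25 (adjusted p = 2.4e-08), -3.09 ± 0.25 (adjusted p = 1.2e-07), -3.02 ± 0.25 (adjusted p = 1.4e-07) and -2.0 ± 0.25 (adjusted p = 1.5e-05) in Dox+RA iHCs of day 12, Dox+RA iHCs of day 8, Dox iHCs of day 12 and Dox iHCs of day 8. Tpx2, which brings Aurora A to the spindle, was left with 11.1% of the EB signal in Dox+RA iHCs of day 12 and 28.3% in Dox iHCs of day 8. The microtubule-depolymerizing kinesin gene Kif2c was left with 15.1% and 25.0%. Hmmr, a microtubule-binding protein of the spindle, was left with 12.3% and 23.1%. Aspm, a spindle pole protein whose loss causes microcephaly in humans, was left with 14.9% and 29.8%.

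The smallest mean fall of a spindle gene was that of Nusap1, a protein that bundles spindle microtubules. At day 12 Nusap1 stood at 4.90, 4.35 and 4.04 in Dox+RA iHCs and at 4.70, 4.71 and 4.93 in Dox iHCs, against 7.16 and 7.02 in EBs. At day 8 Nusap1 stood at 4.51, 4.90 and 4.91 in Dox+RA iHCs and at 5.41, 5.66 and 6.06 in Dox iHCs, against 6.83 and 7.37 in EBs. The EB arrays were the highest at both days. The difference was -2.66 ± 0.24 (adjusted p = 2.4e-07) in Dox+RA iHCs of day 12 and -1.39 ± 0.24 (adjusted p = 0.00025) in Dox iHCs of day 8.

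The 6 genes of the central spindle and of cytokinesis fell in each comparison, with medians of -3.25, -2.98, -2.82 and -2.03. Ect2 encodes the exchange factor that activates the GTPase RhoA at the cell equator. At day 12 Ect2 stood at 5.25, 5.08 and 5.07 in Dox+RA iHCs and at 5.39, 6.10 and 6.54 in Dox iHCs, against 9.02 and 9.27 in EBs. At day 8 Ect2 stood at 5.70, 6.50 and 6.62 in Dox+RA iHCs and at 6.70, 7.48 and 8.07 in Dox iHCs, against 9.18 and 9.48 in EBs. The Dox arrays spread over more than 1 log2 unit at both days, and none reached the EBs. The differences were -4.01 ± 0.36 (adjusted p = 3.0e-07), -3.05 ± 0.36 (adjusted p = 5.9e-06), -3.13 ± 0.36 (adjusted p = 4.7e-06) and -1.91 ± 0.36 (adjusted p = 0.00067) in Dox+RA iHCs of day 12, Dox+RA iHCs of day 8, Dox iHCs of day 12 and Dox iHCs of day 8. Kif23, a kinesin of the centralspindlin complex that recruits Ect2, was left with 10.6% of the EB signal in Dox+RA iHCs of day 12 and 19.3% in Dox iHCs of day 8. The central spindle kinesin gene Kif20a was left with 9.27% and 21.9%. The microtubule bundler Prc1 was left with 11.1% and 27.2%, and its kinesin partner Kif4 with 15.2% and 22.7%.

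Anln, or anillin, the scaffold that ties actin, myosin and RhoA together in the contractile ring, had the smallest mean fall of the cytokinesis genes. At day 12 Anln stood at 4.59, 4.70 and 4.57 in Dox+RA iHCs and at 5.05, 5.71 and 6.35 in Dox iHCs, against 7.91 and 7.87 in EBs. At day 8 Anln stood at 5.50, 5.79 and 5.67 in Dox+RA iHCs and at 6.43, 6.56 and 6.99 in Dox iHCs, against 8.03 and 8.27 in EBs. The Dox+RA arrays lay below the Dox arrays at both days. The difference from EBs was -3.27 ± 0.26 (adjusted p = 7.6e-08) in Dox+RA iHCs of day 12, -2.49 ± 0.26 (adjusted p = 1.6e-06) in Dox+RA iHCs of day 8, -2.19 ± 0.26 (adjusted p = 6.0e-06) in Dox iHCs of day 12 and -1.49 ± 0.26 (adjusted p = 0.00033) in Dox iHCs of day 8.

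The 5 genes of chromosome structure fell in each comparison, with medians of -2.51, -1.87, -2.14 and -1.26. Mki67 encodes Ki-67, a protein that coats mitotic chromosomes and is widely used as a stain for dividing cells. At day 12 Mki67 stood at 5.36, 5.34 and 5.52 in Dox+RA iHCs and at 6.13, 6.36 and 6.37 in Dox iHCs, against 9.52 and 9.36 in EBs. At day 8 Mki67 stood at 5.91, 6.51 and 6.48 in Dox+RA iHCs and at 6.82, 7.37 and 7.98 in Dox iHCs, against 9.42 and 9.58 in EBs. All iHC arrays were below all EB arrays. The differences were -4.03 ± 0.25 (adjusted p = 5.5e-09), -3.20 ± 0.25 (adjusted p = 7.1e-08), -3.15 ± 0.25 (adjusted p = 8.0e-08) and -2.11 ± 0.25 (adjusted p = 7.6e-06) in Dox+RA iHCs of day 12, Dox+RA iHCs of day 8, Dox iHCs of day 12 and Dox iHCs of day 8. Top2a, the topoisomerase that untangles sister chromatids, was left with 6.77% of the EB signal in Dox+RA iHCs of day 12 and 29.5% in Dox iHCs of day 8.

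The condensin genes measured in this role, Smc2, Smc4 and Ncapd2, kept more of their signal than Mki67 and Top2a. This did not extend to Ncaph, a condensin I gene outside the list, which differed by -3.97 in Dox+RA iHCs of day 12. Smc2, a core subunit, was left with 17.6% in Dox+RA iHCs of day 12 and 41.9% in Dox iHCs of day 8, and Ncapd2, a subunit of condensin I, with 31.1% and 43.8%. At day 12 Smc4, the partner of Smc2, stood at 7.87, 7.93 and 8.03 in Dox+RA iHCs and at 8.10, 8.41 and 8.42 in Dox iHCs, against 9.2 and 9.42 in EBs. At day 8 Smc4 stood at 8.43, 8.44 and 8.65 in Dox+RA iHCs and at 8.73, 9.0 and 9.10 in Dox iHCs, against 9.30 and 9.79 in EBs. The gap was narrow for Dox iHCs of day 8 and wider for the other groups. Smc4 fell by 1.37 ± 0.15 (adjusted p = 3.2e-06), 1.04 ± 0.15 (adjusted p = 5.7e-05), 1.0 ± 0.15 (adjusted p = 8.2e-05) and 0.60 ± 0.15 (adjusted p = 0.0067) on the log2 scale in Dox+RA iHCs of day 12, Dox+RA iHCs of day 8, Dox iHCs of day 12 and Dox iHCs of day 8. The last of these was not called without EB day 8 replicate 2 (-0.35, adjusted p = 0.17).

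Setting Dox+RA iHCs against Dox iHCs asks what RA adds. At day 8 the mitosis genes were lower with RA: 28 fell, Cdc25b rose and 14 were not called, where 2.89% of all genes were called lower and 2.05% higher. The median difference was -0.90, or 53.6% of the signal in Dox iHCs, and 42 of 43 genes lay below 0, against a median of 0.02 over all genes. In 37 mitosis genes every Dox+RA array lay below every Dox array, as it did for 12.0% of all genes. The falls reached 2-fold or more in 13 mitosis genes and in 0.609% of all genes. By role, 6 of 6 spindle genes fell, 5 of 9 entry genes, 5 of 8 checkpoint and APC/C genes, 4 of 5 chromosome structure genes, 3 of 5 kinetochore genes, 3 of 6 cytokinesis genes and 2 of 4 passenger complex genes. Hair cell markers moved the other way in the same comparison: 5 of 12 rose (Otof, Cdh23, Myo7a, Lhx3 and Espn) and 0 fell, with a median of 0.51, and their mean signal was 9.58, 9.59 and 9.46 on the Dox+RA arrays, against 9.19, 8.80 and 8.75 on the Dox arrays. In each of the other marker lists at most 1 gene was called. The part of these markers in the result was not tested.

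Among the genes called, the 5 largest falls with RA at day 8 were those of Ndc80, Ccna2, Top2a, Cdk1 and Ccnb2. Ect2 differed by -1.14 ± 0.32 and was not called (adjusted p = 0.058). Ndc80 read 4.20, 5.27 and 5.20 in Dox+RA iHCs, against 5.64, 6.56 and 6.44 in Dox iHCs (-1.32 ± 0.27, adjusted p = 0.012). Ccna2 read 6.08, 6.56 and 6.75, against 7.01, 7.88 and 8.38 in Dox iHCs (-1.29 ± 0.25, adjusted p = 0.0097). Replicate 1 was the lowest of its group for both genes, in both treatments. Top2a read 5.55, 5.99 and 6.10 in Dox+RA iHCs, against 6.73, 7.22 and 7.55 in Dox iHCs (-1.29 ± 0.18, adjusted p = 0.0012). On the arrays given above, Cdk1 fell by 1.26 ± 0.22 on the log2 scale (adjusted p = 0.0044). Ccnb2 read 6.06, 6.41 and 6.45 in Dox+RA iHCs, against 6.92, 7.6 and 7.71 in Dox iHCs (-1.11 ± 0.18, adjusted p = 0.0033). For these 5 genes the groups did not overlap. Cdc25b was higher with RA by 0.58 ± 0.16 (adjusted p = 0.046). This call was lost with each array centred on its median and in every fit that left out 1 array of the groups compared. It was also lost in some fits that left out 1 array of another group.

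This count depended on single arrays. Without Dox day 8 replicate 1 it was 40, and it was 6 without replicate 2 and 9 without replicate 3 of that group. Without Dox+RA day 8 replicate 1 it was 10, and 18 without replicate 2. In a fit of these 2 groups alone it was 13, and with the replicate number as a block it was 36. Shares of all genes were counted only in the fit of all arrays without a block, here and for the other alternative fits below. The replicate numbers paired the iHC samples (their arrays varied together), and within pairs the mean difference of the mitosis genes with RA was -0.57, -0.82 and -1.03.

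At day 12, 1 gene was called with RA. Anln fell by 1.08 ± 0.23 (adjusted p = 0.039) on the log2 scale, as the arrays above show without overlap, and the other 42 genes were not called, where 0.541% of all genes were called lower and 0.383% higher. The adjusted p of Anln ranged from 0.0013 to 0.25 over the alternatives, the highest in a fit of these groups alone, and without Dox day 12 replicate 3 the difference was -0.76 (adjusted p = 0.094). The median difference was -0.40, or 75.8% of the signal in Dox iHCs, with 41 of 43 genes below 0 and 24 lower without overlap between arrays (6.07% of all genes). With the replicate number as a block, 8 genes fell, and the share of all genes called in that fit was not counted. Without Dox day 8 replicate 1 the count was 6, without replicate 3 of that group it was 3, without Dox day 12 replicate 1 or Dox+RA day 8 replicate 1 it was 2, and without each of the other arrays it was 0. Within pairs, the mean difference of the mitosis genes was -0.15, -0.44 and -0.58.

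The difference between the RA effects of the days was tested directly. It had 0 called genes in limma, where 0.00902% of all genes were called lower and 0.0% higher. Its median was 0.42, with 41 of 43 genes above 0, the direction of a smaller RA effect at day 12.

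Between day 8 and day 12 the mitosis genes declined further in Dox iHCs: 34 fell, 0 rose and 9 were not called, where 4.66% of all genes were called lower and 3.39% higher. The median difference of day 12 from day 8 was -0.96, or 51.6% of the day 8 signal, against 0.01 over all genes, and 18 genes fell 2-fold or more (0.775% of all genes). In 36 genes every day 12 array lay below every day 8 array (12.2% of all genes). The same Dox day 8 arrays enter here and in the RA comparison of day 8. Ndc80 had the largest fall and read 4.21, 4.82 and 4.82 at day 12, against 5.64, 6.56 and 6.44 at day 8 (-1.60 ± 0.27, adjusted p = 0.0037). Ect2 fell by 1.41 ± 0.32 (adjusted p = 0.017), Cdk1 by 1.37 ± 0.22 (adjusted p = 0.0027), Top2a by 1.37 ± 0.18 (adjusted p = 0.0011) and Tpx2 by 1.27 ± 0.16 (adjusted p = 0.00091) on the log2 scale. Top2a read 5.55, 5.92 and 5.91 at day 12, against 6.73, 7.22 and 7.55 at day 8. Tpx2 read 5.16, 5.41 and 5.66 at day 12, against 6.40, 6.64 and 6.99 at day 8. Neither gene overlapped between the days.

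Leaving out Dox day 8 replicate 1 gave 40 falls in this comparison, replicate 2 gave 17 and replicate 3 gave 16, and leaving out Dox day 12 replicate 1 gave 17. A fit of these 2 groups alone gave 10, and the replicate number as a block gave 40. Within pairs the mean difference of day 12 from day 8 over the mitosis genes was -0.68, -0.98 and -1.02. Markers of other cell types were also called lower at day 12 in Dox iHCs: 5 of 10 neural progenitor markers (Vim, Sox2, Nes, Notch1 and Hes5, median -0.58), 4 of 12 blood and endothelium markers (Kdr, Cd34, Gata1 and Hbb-bh1, median -0.59) and 3 of 10 neuron markers (Nefl, Nefm and Stmn2, median -0.08), while the neuron marker Snap25 rose. Of 12 hair cell markers 1 rose (Cdh23) and 0 fell, with a median of 0.30. Of 12 mesenchyme markers 1 fell, Vim, which is also on the neural progenitor list. The part of these markers in the decline was not tested.

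In Dox+RA iHCs, which stood lower at day 8 already, 9 genes fell between the days, 0 rose and 34 were not called, where 2.61% of all genes were called lower and 1.78% higher. These were Anln, Ube2c, Mki67, Top2a, Smc2, Cdk1, Cenpa, Tpx2 and Smc4, of which 4 are genes of chromosome structure. Anln fell by 1.04 ± 0.23 (adjusted p = 0.022), Mki67 by 0.90 ± 0.22 (adjusted p = 0.034), Ube2c by 0.90 ± 0.20 (adjusted p = 0.019), Top2a by 0.87 ± 0.18 (adjusted p = 0.015) and Smc2 by 0.85 ± 0.14 (adjusted p = 0.0031) on the log2 scale. Ect2 differed by -1.14 ± 0.32, more than Anln, and was not called (adjusted p = 0.064). Top2a read 5.02, 5.00 and 5.02 at day 12, against 5.55, 5.99 and 6.10 at day 8. Smc2 read 5.51, 5.49 and 5.49 at day 12, against 6.18, 6.46 and 6.39 at day 8. The day 12 arrays were nearly equal for both genes. Ube2c read 5.31, 5.76 and 5.74 at day 12, against 6.32, 6.57 and 6.63 at day 8, again without overlap. The median over the 43 genes was -0.50, or 70.8% of the day 8 signal, and 28 genes did not overlap between the days (9.96% of all genes). With the replicate number as a block 20 genes fell, and the count was 1 without Dox+RA day 8 replicate 2 or 3 and 2 without Dox+RA day 12 replicate 1 or 2. Within pairs the mean difference of the mitosis genes was -0.26, -0.61 and -0.57. In this comparison 2 of 10 neural progenitor markers fell and 1 rose, and 2 of 12 blood and endothelium markers, 2 of 10 neuron markers, 1 of 10 cardiac markers, 1 of 12 mesenchyme markers (Vim again) and 1 of 12 hair cell markers (Pcdh15) fell. Their part was not tested either.

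In EBs no mitosis gene was called between the days in limma, where 1.42% of all genes were called lower and 2.33% higher. All 43 differences were below 0, with a median of -0.20 or 86.8% of the day 8 signal, and 18 genes did not overlap between the days, as did 22.1% of all genes in that direction. The lowest was Cdc25b (-0.72 ± 0.19, adjusted p = 0.052). With the replicate block 2 genes fell.

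Whether iHCs changed more over time than EBs was tested as a difference of differences. For Dox iHCs it was called for 2 genes, Top2a (-1.34 ± 0.29, adjusted p = 0.020) and Smc2 (-0.89 ± 0.22, adjusted p = 0.040), where 1.81% of all genes were called lower and 1.03% higher. Its median over the 43 genes was -0.75. With the replicate block 13 genes were lower and 1 higher. The count of lower genes was 0 without any 1 of the EB arrays or Dox day 8 replicate 2, 15 without Dox day 8 replicate 1, 8 without Dox day 12 replicate 3, and 1 to 3 without each of the other arrays. For Dox+RA iHCs it had 0 calls in limma, where 1.67% of all genes were called lower and 0.956% higher, with a median of -0.26. With the replicate block 2 were lower.

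The mitosis genes moved together across arrays. The Pearson correlation of a gene's signal with the mean of the other mitosis genes over the 16 arrays was above 0.95 for 40 of 43, and 3.27% of the genes outside the list had such a correlation with the mean of the list. The arrays share the large step between EBs and iHCs, so this is a description. The lowest values were those of Cdc25b (-0.922), Bub3 (-0.146), Pttg1 (0.913), Smc4 (0.954) and Wee1 (0.968). Over the 12 iHC arrays alone they were -0.669 for Cdc25b, -0.478 for Bub3, 0.907 for Pttg1, 0.958 for Smc4 and 0.862 for Wee1. Cdc25b ran against the list within the iHCs as well. The genes outside the list with the closest pattern were Skp2 (0.997), Kif18b (0.996), Igf2bp3 (0.995), and Knl1, Ticrr, Cip2a, Kif15, Ncaph, Uhrf1 and Dtl (0.994 each). Kif18b and Kif15 are mitotic kinesins, Knl1 is the kinetochore scaffold of the checkpoint and Ncaph a subunit of condensin I. Ticrr, Uhrf1 and Dtl act in DNA replication or in the copying of its methylation, and Skp2 in the destruction of a Cdk inhibitor.

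Within the Dox iHCs of day 8 the replicates were ordered alike for most genes. Replicate 1 was the lowest in 41 of 43 genes and replicate 3 the highest in 36, with list means of 6.04, 6.55 and 6.80. The order was not counted over all genes, so it may not be particular to the mitosis genes. On the same arrays 12 hair cell markers averaged 9.19, 8.80 and 8.75, 9 endoderm markers 5.43, 5.63 and 6.14, 12 mesenchyme markers 5.22, 5.37 and 5.57, and 10 pluripotency markers 4.99, 5.11 and 5.49. The 10 cardiac markers averaged 5.02, 5.25 and 5.37. Replicate 1, with the lowest mitosis mean, thus had the highest hair cell marker mean and the lowest mean of these 4 other lists. The rest ran differently: 12 blood and endothelium markers averaged 5.33, 5.48 and 5.01, 10 neural progenitor markers 6.54, 6.81 and 6.69, and 10 neuron markers 7.01, 6.86 and 6.46, so that replicate 3 had the lowest blood and endothelium mean and replicate 1 the highest neuron mean. Their part in the result was not tested.

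**Figure D5:**
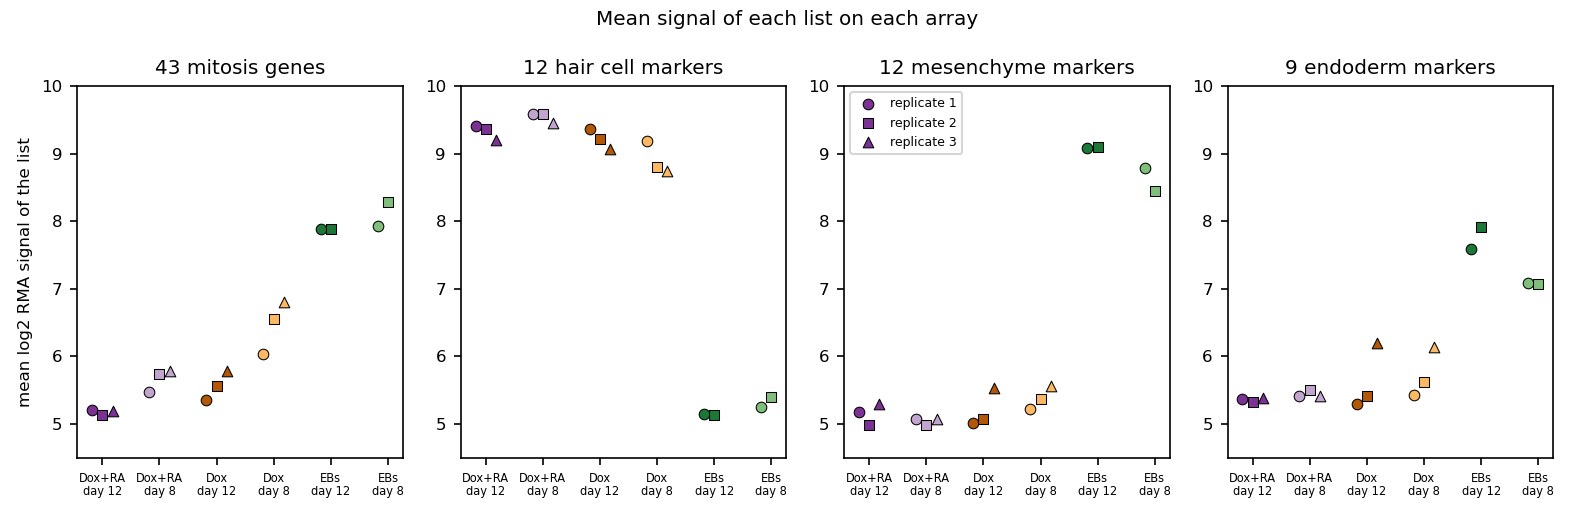
Mean log2 RMA signal of 43 mitosis genes, 12 hair cell, 12 mesenchyme and 9 endoderm markers on each array, by group, with replicate numbers as symbols. In Dox iHCs of day 8, replicate 1 has the lowest mitosis mean (6.04) and the highest hair cell mean (9.19), and replicate 3 the highest mitosis mean (6.80) and the lowest hair cell mean (8.75).

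The sorted groups carried hair cell markers: 12 of 12 (Myo7a, Myo6, Atoh1, Pou4f3, Gfi1, Lhx3, Barhl1, Otof, Cdh23, Pcdh15, Espn and Rbm24) were called higher than in EBs in each iHC group. Their summed linear signal ranged from 9290 to 12900 in iHCs and from 636 to 751 in EBs. Atoh1, Pou4f3 and Gfi1 are the genes that Dox induces, and Myo7a is the gene whose reporter was sorted. The design therefore set the direction of these genes in advance, and the sums include them. Of 12 mesenchyme markers 11 were lower in each iHC group, with sums of 706 to 1570 in iHCs and 7390 to 10600 in EBs. Endoderm markers summed to 375 to 804 in iHCs and 2260 to 3320 in EBs, and 12 blood and endothelium markers to 292 to 815 in iHCs and 1560 to 2920 in EBs. Calls follow in the order Dox+RA day 12, Dox+RA day 8, Dox day 12 and Dox day 8. Of 9 endoderm markers 8, 6, 8 and 5 were lower, of 12 blood and endothelium markers 10, 12, 10 and 12, and 0 were higher. The 10 cardiac markers summed to 324 to 637 in iHCs and 1100 to 3210 in EBs, and the pluripotency markers to 307 to 633 in iHCs and 840 to 1710 in EBs. In the same order 5, 8, 5 and 8 cardiac markers were lower and 0, 0, 1 and 0 higher. Of 10 pluripotency markers 6, 7, 8 and 7 were lower and 0 higher. Of 10 neural progenitor markers 4, 3, 3 and 4 were higher and 4, 3, 4 and 3 lower in Dox+RA iHCs of day 12, Dox+RA iHCs of day 8, Dox iHCs of day 12 and Dox iHCs of day 8, with Sox1, Sox2 and Hes5 higher and Vim and Slc1a3 lower in each. The neural progenitor markers summed to 1260 to 2540 in iHCs and 3140 to 3260 in EBs. Neuron markers ran the other way, with sums of 1550 to 2780 in iHCs and 239 to 367 in EBs. Of 10 neuron markers 5, 7, 7 and 8 were higher and 1, 0, 1 and 0 lower in the same order. EBs thus had more summed signal of the mesenchyme, endoderm, blood and endothelium, cardiac and pluripotency lists. For the neural progenitor list the higher EB sum rests largely on Vim, which is also a mesenchyme marker. Vim averaged 11.12 and 11.20 in EBs of day 8 and day 12, where Sox2 averaged 8.21 and 7.76. Sums without Vim were not taken, so no direction is given for the rest of that list. Sums weigh bright genes most, and not every gene of these lists was called lower. The part of cell makeup in the lower mitosis signal was not tested. Signals on this array have no detection call, so no marker can be stated to be absent.

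Other genes of cell division were counted for comparison, in lists put together for this purpose. Counts are given in the order Dox+RA iHCs of day 12, Dox+RA iHCs of day 8, Dox iHCs of day 12 and Dox iHCs of day 8, each against EBs, beside the shares of all genes given above. Of 28 further centromere and kinetochore genes 25, 26, 25 and 24 fell and 1 rose in each, with a median of -1.46 in Dox+RA iHCs of day 12. Knl1 (-3.28 ± 0.22, adjusted p = 1.3e-08), Zwilch (-2.86 ± 0.15, adjusted p = 1.1e-09) and Ska3 (-2.74 ± 0.18, adjusted p = 9.0e-09) fell most in Dox+RA iHCs of day 12. Zwint, a partner of Knl1 at the kinetochore, rose there (0.42 ± 0.08, adjusted p = 0.0004). Of 28 further spindle, centrosome and cytokinesis genes 26, 26, 27 and 25 fell and 0 rose, with a median of -2.10 in Dox+RA iHCs of day 12. Racgap1, the partner of Kif23 in centralspindlin, changed by -3.63 ± 0.26, Depdc1a by -3.49 ± 0.25 and Kif15 by -3.46 ± 0.24.

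The medians of 2 other lists were nearer to 0. Of 16 further condensin, cohesin and separase genes 11, 11, 11 and 10 fell, and 2, 2, 3 and 1 rose, with a median of -0.56 in Dox+RA iHCs of day 12. Ncaph (-3.97 ± 0.26), the cohesin acetyltransferase gene Esco2 (-3.02 ± 0.28) and the cohesin protector Cdca5, or sororin (-2.24 ± 0.21), fell most in Dox+RA iHCs of day 12, whereas the condensin II gene Ncapd3 (0.58 ± 0.12, adjusted p = 0.00097) and the cohesin gene Stag2 (0.37 ± 0.10, adjusted p = 0.0048) rose. Of 16 further APC/C genes 6, 9, 6 and 5 fell and 0, 2, 0 and 1 rose, with a median of -0.24 in Dox+RA iHCs of day 12. The largest fall there was that of Fbxo5, the inhibitor Emi1 (-1.98 ± 0.22, adjusted p = 2.1e-06), while the core subunit genes Anapc1 (-0.67 ± 0.09) and Cdc16 (-0.59 ± 0.14) fell by less than 2-fold. Of 15 further kinases, cyclins and checkpoint genes 12, 11, 12 and 10 fell and 0, 1, 0 and 0 rose. Cks2, a subunit of Cdk complexes, fell by 3.09 ± 0.27, Mastl, the Greatwall kinase, by 2.75 ± 0.20 and the phosphatase gene Cdc25a by 2.58 ± 0.21 on the log2 scale in Dox+RA iHCs of day 12. Cdc25a and Cdc25c thus fell where Cdc25b rose.

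All 19 S phase genes fell in each comparison, with medians of -2.05, -2.12, -2.05 and -1.64. The replicative helicase genes Mcm6 (-3.09 ± 0.32) and Mcm5 (-3.04 ± 0.28) and the chromatin assembly gene Chaf1b (-3.03 ± 0.20) fell most in Dox+RA iHCs of day 12. The 21 genes of the DREAM, MuvB, E2F and Rb family, which regulate the mitosis genes, moved both ways: 10, 9, 9 and 8 fell and 4, 4, 5 and 4 rose. Their median was -0.09 in Dox+RA iHCs of day 12. The E2F genes E2f8 (-3.06 ± 0.13, adjusted p = 2.0e-10) and E2f3 (-2.54 ± 0.16, adjusted p = 7.1e-09) fell in Dox+RA iHCs of day 12. Mybl2 averaged 5.86 in that group, against 8.01 in EBs of day 12. Rb1, the retinoblastoma protein gene, whose product holds E2F factors back, rose by 2.23 ± 0.14 (adjusted p = 5.7e-09), and Tfdp2, an E2F partner, by 0.70 ± 0.09 (adjusted p = 8.0e-06).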

How the data were processed

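Each of the 16 samples was hybridised to 1 Affymetrix Mouse Gene 2.1 ST array. The deposited values are log2 signals that the authors made with RMA and, per the submitters' processing notes, Affymetrix Expression Console, no version given; by its construction RMA corrects the background, normalizes quantiles between arrays and summarises probes, so that array medians lay between 4.67 and 4.82 and a shift common to most genes would be removed. The sources used here name no batch or scan date. Precision is limited by how many arrays each group has.

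Of 33708 entries, 23521 had 1 gene symbol, 1814 several and 8373 none; entries with 1 symbol gave 22180 genes, and for the 1082 genes with more than 1 entry the one with the highest mean was kept. No filter on dim genes was applied. limma 3.58.1 in R 4.3.3 fitted the 6 group means to all genes, with eBayes and Benjamini-Hochberg adjustment over all genes in each comparison, and a gene was called at an adjusted p under 0.05. The code was tested on simulated data. Python 3.11.15 with pandas 2.3.3 and matplotlib 3.10.9 was used for tables and plots.

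Same-numbered arrays of different iHC groups deviated together (correlations of 0.147 to 0.513 in all pairs of iHC groups, each above 0.1), so the replicate number was taken to pair the iHC samples, and a fit with it as a block was an alternative. With EBs the correlations were 0.0259 to 0.179 over 2 pairs. Other alternatives were fitting only the groups compared, a trended and robust prior, leaving out dim genes, averaging entries, quantile normalization, median centring, array weights, a 2-fold threshold, and leaving out each array. For alternative fits the share of all genes called was not counted, so a changed count may not be particular to the mitosis genes.

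The genes with full values were the largest and smallest mean change per role, the members not called or called higher in any comparison with EBs, and, among the members called, up to 5 with the largest change in each other comparison. In the further lists, up to 3 of the largest falls and up to 2 of the largest rises in Dox+RA iHCs of day 12 were named. The members, the gene lists and these rules were chosen with earlier results of these data known. Promoter sequences are those of RefSeq for GRCm38.p6.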

Additional observations from a re-analysis of the deposited data

Results flagged for a closer look

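Top2a and Smc2 were flagged because their change over time differed between Dox iHCs and EBs in the test of that difference. For Top2a the change from day 8 to day 12 was -1.37 in Dox iHCs and -0.04 in EBs, a difference of -1.34 (limma adjusted p = 0.020 over all genes), and all 3 Dox arrays of day 12 lay below all 3 of day 8. For Smc2 it was -1.10 in Dox iHCs and -0.21 in EBs, a difference of -0.89 (limma adjusted p = 0.040). Both genes were lower at day 12 in all 3 replicate pairs of Dox iHCs. Neither call held in a fit of the 4 groups alone, with an adjusted p of 0.052 for Top2a and 0.11 for Smc2.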

How the results depend on the processing

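Every comparison of iHCs with EBs kept 39 to 41 called falls in each leave-one-out fit (39 to 41 for Dox day 8, 41 to 41 for the others), and the count of rises was 1 to 2 for Dox+RA day 12 and 1 to 1 for the others. No value reversed. The replicate number as a block gave 2 rises in Dox+RA iHCs against EBs of day 12 and 8 falls with RA at day 12. It gave 20 falls over time in Dox+RA iHCs and 2 in EBs. For changes over time against EBs it gave 13 lower and 1 higher in Dox iHCs, and 2 lower in Dox+RA iHCs. This pairing moved no other count of mitosis genes called by over 1.5 times. Counts of the other cell division lists also moved with the block and are not given here.

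Fitting only the groups compared gave 13 falls with RA at day 8, 10 over time in Dox iHCs, 16 over time in Dox+RA iHCs, and for the changes over time against EBs 0 in Dox iHCs and 1 in Dox+RA iHCs. The 2-fold threshold gave 13 falls and 0 rises with RA at day 8, 18 falls over time in Dox iHCs, 1 in Dox+RA iHCs and 1 for Dox iHCs against EBs over time. Median centring gave 0 rises with RA at day 8 and 2 falls at day 12. Leaving out dim genes and quantile normalization each gave 2 falls with RA at day 12 and 1 over time in EBs, and the trended and robust prior gave 1 over time in EBs. Array weights gave 3 falls and 1 rise with RA at day 12, 17 falls over time in Dox+RA iHCs, 1 in EBs, 8 lower and 1 higher for Dox iHCs over time against EBs, and 1 higher for Dox+RA iHCs.

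Leaving out each array gave 6 to 40 falls and 0 to 1 rises with RA at day 8, 0 to 6 falls and 0 to 1 rises at day 12, 16 to 40 falls over time in Dox iHCs, 1 to 13 in Dox+RA iHCs and 0 to 1 in EBs. For changes over time against EBs it gave 0 to 15 lower and 0 to 1 higher in Dox iHCs, and 0 to 1 higher in Dox+RA iHCs. The cause of these shifts was not tested. With 3 and 2 arrays a group, precision is limited, and signal over background cannot be judged without detection calls.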
